A study of Homo sapiens with 12 samples.

Results

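The extrinsic apoptosis pathway was followed through 8 genes in MDA-MB-231 cells: the ligand TNFSF10, the death receptors FAS, TNFRSF10A and TNFRSF10B, the adaptor FADD, the initiator caspases CASP8 and CASP10, and the caspase-8 inhibitor CFLAR. Members were chosen by gene symbol, and all of their probes in the table of signals that had not been normalised were taken, which gave 14 of 47322 probes. A probe was kept for testing where its detection p was under 0.05 on at least 3 of the 12 arrays, which 10 of the 14 member probes and 23079 probes in all passed. TNFRSF10B had 3 probes, CASP8 had 4, CASP10 had 2 and each of the other members had 1.

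MDA-MB-231, a line derived from human breast cancer, has a mutant p53 in place of the wild-type tumour suppressor, and tumour necrosis factor (TNF) is an inflammatory cytokine that activates the transcription factor NF-kB. The groups combined either siRNA, control or p53, with either no treatment or TNF, on 12 Illumina bead arrays of 1 colour in 4 groups of 3, described in the labels as biological replicates. All cells were grown in 10% serum, transfected, and at 48 h moved to 0.1% serum for 20 h, either without TNF or with TNF at 10 ng/ml. The 4 groups are therefore control siRNA untreated, control siRNA with TNF, p53 siRNA untreated and p53 siRNA with TNF, and all of them share the line, the transfection and the low serum. The controls were transfected too, so what transfection itself did was not measured, and effects of the p53 siRNA on other transcripts cannot be told apart from effects of p53 depletion.

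Death receptors of the TNF receptor family carry a cytoplasmic death domain. When TNFSF10 (TRAIL) binds TNFRSF10A (DR4) or TNFRSF10B (DR5), or FAS ligand binds FAS, the receptors recruit FADD, whose death effector domain in turn gathers CASP8 and CASP10, which activate each other there and cleave the executioner caspases. CFLAR (c-FLIP) resembles CASP8 but has no active protease site, takes its place in the complex and limits its activation; CFLAR and FAS are known targets of NF-kB, and FAS and TNFRSF10B of wild-type p53.

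Promoters are shown for TNFSF10, CFLAR and CASP8 because these members were called below and have windows in the promoter table used. The RefSeq promoter table (GRCh38.p14) matched 5 of the 8 members by symbol, with 12 windows of 300 bases, each from 250 bases before an annotated start site to 50 bases from it on. Both strands were searched for GAAANNGAAA, a core of interferon-responsive elements, and for TTCNNNGAA, the core bound by STAT factors. They were also searched for TGANTCA, which is wider than the AP-1 core (TGACTCA or TGAGTCA), and for the NF-kB consensus and the p53 half-site by name. Printed below, 5′ to 3′ on the gene's strand, are the windows of called members that hold an NF-kB consensus or GAAANNGAAA match, and the capitals mark that match.
TNFSF10, chr3:172523381-172523680, minus strand: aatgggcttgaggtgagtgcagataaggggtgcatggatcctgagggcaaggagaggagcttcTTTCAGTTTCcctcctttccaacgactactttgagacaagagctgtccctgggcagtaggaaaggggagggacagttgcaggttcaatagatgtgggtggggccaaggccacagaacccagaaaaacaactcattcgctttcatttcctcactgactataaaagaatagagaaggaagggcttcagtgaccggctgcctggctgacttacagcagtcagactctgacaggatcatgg
CFLAR, chr2:201118466-201118765, plus strand: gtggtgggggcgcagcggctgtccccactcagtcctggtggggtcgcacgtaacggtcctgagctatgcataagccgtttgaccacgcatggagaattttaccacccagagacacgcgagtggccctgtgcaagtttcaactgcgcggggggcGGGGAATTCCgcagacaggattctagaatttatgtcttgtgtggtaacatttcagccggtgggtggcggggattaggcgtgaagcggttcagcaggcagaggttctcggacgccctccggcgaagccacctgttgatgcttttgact
CASP8, chr2:201233213-201233512, plus strand: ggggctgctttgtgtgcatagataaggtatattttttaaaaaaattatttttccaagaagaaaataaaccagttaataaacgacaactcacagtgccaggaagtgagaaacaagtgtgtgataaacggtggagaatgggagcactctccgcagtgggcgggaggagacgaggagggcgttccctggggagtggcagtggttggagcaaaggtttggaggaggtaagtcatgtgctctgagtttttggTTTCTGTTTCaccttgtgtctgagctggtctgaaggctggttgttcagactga
The capitals in the TNFSF10 window are GAAANNGAAA on the opposite strand, from position -187 counted from the start site. The capitals in the CFLAR window, 1 of 4 listed for this gene, match the NF-kB consensus from position -97. The capitals in the CASP8 window, 1 of 3 listed, are again GAAANNGAAA on the opposite strand, from position -3, and this window also holds a TTCNNNGAA match from position -200. Of all 35116 windows of the table, 11.3% held the NF-kB consensus, 3.57% GAAANNGAAA, 7.66% TTCNNNGAA, 7.71% TGANTCA and 6.63% the p53 half-site. Among the other windows of CASP8, CFLAR, FADD and FAS, TGANTCA was found in 5, a p53 half-site in 1 of CASP8 and 1 of FAS, and the NF-kB consensus in 1 of FAS. The TGANTCA matches of CASP8 were TGAGTCA and TGACTCA, whereas those of CFLAR, FADD and FAS were TGAATCA, which is not the AP-1 core. A match describes the letters only, and binding was not measured. CFLAR, CASP10 and CASP8 follow each other on chromosome 2 in the RefSeq gene order, with only pseudogenes and the antisense RNA gene CFLAR-AS1 listed between them.

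The arrays were alike in brightness, with median signals from 226.35 to 266 and 19810 to 21157 probes detected. Replicates correlated at 0.99 or more over the kept probes in 3 groups, whereas the p53 siRNA untreated group gave 0.986, 0.973 and 0.976, with replicate 3 standing apart, so member changes that rest on this group are also given without that array where leaving it out changed a call, turned a sign or moved the value by over 1.5 times. All 6 markers of the line (such as VIM and CD44) were detected on all 12 arrays, and ESR1, PGR and CDH1 were detected on none, while EPCAM, listed as low in this line, was detected on all 12. Of the markers of other cells, PTPRC, CD3E, CDH5 and VWF were detected on no array, CD14, LYZ, CD68, PECAM1 and PDGFRB on all 12, COL1A1 on 11 and DCN on 6. The NF-kB targets NFKBIA, TNFAIP3 and ICAM1 rose with TNF by 1.69, 2.87 and 3.18 log2 in control siRNA cells and by 1.07, 2.10 and 2.07 in p53 siRNA cells. None of these responses was shown to differ between the siRNAs (adjusted p = 0.275, 0.258 and 0.242, limma). In untreated cells their p53 siRNA effects were 0.46, 0.0034 and 0.32, with an adjusted p under 0.05 for NFKBIA only. In RNA from whole cultures, fewer cells with a transcript and less of it per cell cannot be told apart. Levels below are normalised log2 intensities, which compare arrays for 1 probe and not 1 probe with another; ± is the SD over 3 arrays beside a mean and the standard error beside a log2 change. Adjusted p-values are from limma over all 23079 kept probes with Benjamini-Hochberg adjustment, and a change was called at an adjusted p under 0.05. A p-value rests on the spread among arrays within groups, pooled over the 4 groups and drawn towards the spread of all kept probes. It covers no other source of variation. Arrays outside a comparison therefore bear on its p-value too.

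TNFSF10, the ligand, moved the most of the members. On the control siRNA untreated arrays its levels were 8.14, 7.99 and 8.04, and with TNF they were 10.16, 10.46 and 10.24. On the p53 siRNA untreated arrays they were 7.75, 7.48 and 8.0, and with TNF 9.41, 9.51 and 9.50. Every TNF-treated array lay above every untreated one, and among the treated arrays all 3 with p53 siRNA lay below all 3 with control siRNA. TNF raised TNFSF10 by 2.23 ± 0.14 log2 (4.70-fold, adjusted p = 1.43e-06, limma) in control siRNA cells and by 1.72 ± 0.14 (3.31-fold, adjusted p = 1.65e-05) in p53 siRNA cells. With TNF present the level fell by 0.82 ± 0.14 log2 with p53 siRNA (adjusted p = 0.00147). Between the untreated groups the difference was -0.31 ± 0.14 (adjusted p = 0.128) and the arrays overlapped, from 7.99 to 8.14 with control siRNA and 7.48 to 8.0 with p53 siRNA. Without p53 siRNA untreated replicate 3 that difference was -0.44 with an adjusted p of 0.022, and the TNF effect in p53 siRNA cells was 1.85. The order of the group means was 10.29 ± 0.15 in control siRNA with TNF, 9.47 ± 0.06 in p53 siRNA with TNF, 8.06 ± 0.08 in control siRNA untreated and 7.75 ± 0.26 in p53 siRNA untreated, and the last pair did not differ beyond their spread. The TNF response difference, the change with TNF under p53 siRNA less the change with TNF under control siRNA, was -0.51 ± 0.20 and was not called (adjusted p = 0.463).

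**Figure D1:**
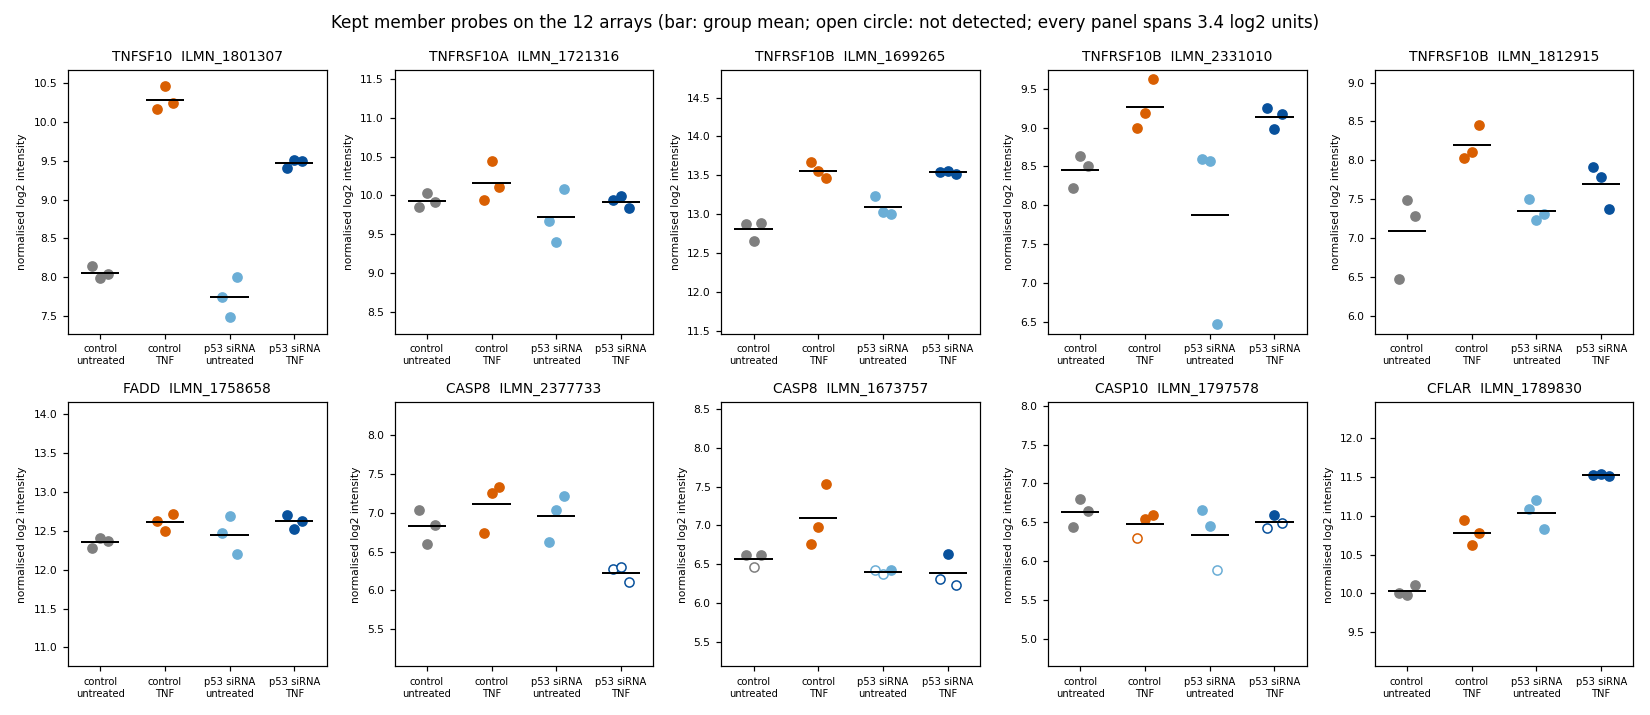
Normalised log2 intensity of the 10 kept member probes on each of the 12 arrays, by group, with a bar at each group mean and open circles for arrays on which the probe was not detected; every panel spans the same range. TNFSF10 separates by treatment, from 7.48 to 8.14 untreated and from 9.41 to 10.46 with TNF, while CFLAR climbs from 10.03 in control siRNA untreated to 11.53 in p53 siRNA with TNF.

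FAS, the receptor of FAS ligand, was not measurable by its 1 probe. Its signals ran from 173.5 to 258 over the 12 arrays, with detection p-values from 0.0727 to 0.749, so it was not detected on any array and no comparison was made. An undetected probe limits what can be said to this probe and does not show that the transcript is absent.

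TNFRSF10A, which binds TNFSF10, was detected on every array and was not called in any comparison. Its levels were 9.85, 10.03 and 9.92 in control siRNA untreated, 9.95, 10.44 and 10.10 with TNF, 9.67, 9.40 and 10.08 in p53 siRNA untreated and 9.94, 9.99 and 9.84 with TNF. All 4 groups overlapped with at least 1 other, and no order of the means held beyond the spread. The TNF effects were 0.23 ± 0.17 (95% interval -0.15 to 0.61) in control siRNA cells and 0.20 ± 0.17 (-0.18 to 0.58) in p53 siRNA cells. The p53 siRNA effects were -0.22 ± 0.17 (-0.60 to 0.16) untreated and -0.24 ± 0.17 (-0.62 to 0.14) with TNF. Under median scaling in place of quantile normalisation the first of these was -0.38 and without p53 siRNA untreated replicate 3 it was -0.40, neither called. Without that array the TNF effect in p53 siRNA cells was 0.38. The intervals leave room for a change in either direction, so the 4 values do not show that the gene was unaltered.

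TNFRSF10B, the other TNFSF10 receptor, rose with TNF in control siRNA cells by 2 of its 3 probes. Probe ILMN_1699265, the brightest, read 12.87, 12.65 and 12.88 in control siRNA untreated, 13.66, 13.55 and 13.46 with TNF, 13.23, 13.03 and 13.00 in p53 siRNA untreated and 13.54, 13.56 and 13.52 with TNF. Both TNF-treated groups lay above all untreated arrays and overlapped each other, and the p53 siRNA untreated arrays lay just above those of control siRNA untreated. TNF raised it by 0.75 ± 0.12 log2 (1.69-fold, adjusted p = 0.00228, limma) in control siRNA cells and by 0.45 ± 0.12 (1.37-fold, adjusted p = 0.0496) in p53 siRNA cells. The second call sat at the threshold. It was called without p53 siRNA untreated replicate 1 (0.53, adjusted p = 0.0342) and was lost in the other 11 fits that each left out 1 array, with changes from 0.41 to 0.46 and adjusted p-values from 0.0559 without control siRNA untreated replicate 2 to 0.154 without p53 siRNA with TNF replicate 2. The p53 siRNA effects were 0.28 ± 0.12 (adjusted p = 0.101) untreated and -0.02 ± 0.12 (adjusted p = 0.931) with TNF, and the TNF response difference was -0.30 ± 0.17 (adjusted p = 0.61).

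Probe ILMN_1812915 of TNFRSF10B read 6.48, 7.49 and 7.28 in control siRNA untreated, 8.03, 8.11 and 8.46 with TNF, 7.51, 7.22 and 7.31 in p53 siRNA untreated and 7.92, 7.78 and 7.37 with TNF. The control siRNA TNF arrays lay above all others, and replicate 1 of control siRNA untreated was the lowest of the 12. TNF raised it by 1.11 ± 0.24 log2 (2.17-fold, adjusted p = 0.0159, limma) in control siRNA cells, which became 0.98 with an adjusted p of 0.076 without control siRNA with TNF replicate 3 and was 0.60 in the authors' processed values. In p53 siRNA cells the TNF effect was 0.34 ± 0.24 (adjusted p = 0.505). The p53 siRNA effects were 0.26 ± 0.24 untreated and -0.51 ± 0.24 with TNF (adjusted p = 0.154), the latter called under median scaling at -0.70 (adjusted p = 0.0463), and the TNF response difference was -0.77 ± 0.34 (adjusted p = 0.51). Probe ILMN_2331010 of the same gene read 8.23, 8.63 and 8.51 in control siRNA untreated, 8.99, 9.18 and 9.62 with TNF, 8.60, 8.57 and 6.47 in p53 siRNA untreated and 9.25, 8.98 and 9.18 with TNF. The 6.47 came from the array that stands apart, and every TNF-treated array exceeded every untreated one. The TNF effects of this probe were 0.81 ± 0.44 (adjusted p = 0.378) and 1.26 ± 0.44 (adjusted p = 0.138), and without p53 siRNA untreated replicate 3 they were 0.81 (adjusted p = 0.012) and 0.56 (adjusted p = 0.0965). Its p53 siRNA effects were -0.58 ± 0.44 untreated, which was 0.13 without that array, and -0.13 ± 0.44 with TNF.

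FADD, the adaptor that joins receptor and caspase, was detected on every array and was not called. Its levels were 12.28, 12.41 and 12.37 in control siRNA untreated, 12.63, 12.50 and 12.71 with TNF, 12.47, 12.69 and 12.20 in p53 siRNA untreated and 12.71, 12.53 and 12.63 with TNF. The 3 control siRNA TNF arrays lay above the 3 untreated ones, and the p53 siRNA untreated arrays spanned nearly the whole range. The TNF effects were 0.26 ± 0.14 (adjusted p = 0.35, 95% interval -0.03 to 0.56) in control siRNA cells and 0.17 ± 0.14 (adjusted p = 0.569) in p53 siRNA cells. The p53 siRNA effects were 0.10 ± 0.14 (adjusted p = 0.635) and 0.01 ± 0.14 (adjusted p = 0.983), with the sign turned to -0.13 and -0.20 under median scaling. Without p53 siRNA untreated replicate 3 the TNF effect in p53 siRNA cells was 0.04 and the untreated p53 siRNA effect 0.23.

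CASP8, the initiator caspase that FADD gathers, was dim, and its probes, annotated to 4 different transcripts, did not all give a measurement. Probe ILMN_2377733 read 7.03, 6.60 and 6.84 in control siRNA untreated, 6.75, 7.26 and 7.34 with TNF, 6.63, 7.04 and 7.21 in p53 siRNA untreated and 6.27, 6.31 and 6.11 with TNF. It was detected on all arrays of the first 3 groups, which overlapped, and on none of p53 siRNA with TNF, which lay below all 9 other arrays. With TNF present it was at least 1.54-fold lower with p53 siRNA by the group means. The fitted change was -0.88 ± 0.19 log2 (95% interval -1.30 to -0.47, adjusted p = 0.00571, limma). Within p53 siRNA cells the untreated arrays were, by the group means, at least 1.39-fold above the TNF arrays. The fitted change of -0.73 ± 0.19 (95% interval -1.15 to -0.31) missed the threshold (adjusted p = 0.0501). It was called without control siRNA with TNF replicate 1 (-0.73, adjusted p = 0.0335) and without p53 siRNA untreated replicate 1 (-0.90, adjusted p = 0.0254), and was -0.60 (adjusted p = 0.0961) without p53 siRNA untreated replicate 3. In control siRNA cells the TNF effect was 0.29 ± 0.19 (adjusted p = 0.501), and between untreated groups the p53 siRNA effect was 0.13 ± 0.19 (adjusted p = 0.653), or 0.0083 without p53 siRNA untreated replicate 3. The TNF response difference was fitted as -1.02 ± 0.27 (adjusted p = 0.247), a value that rests on the group in which the probe was not detected.

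Probe ILMN_1673757 of CASP8 read 6.62, 6.47 and 6.61 in control siRNA untreated, 6.76, 6.98 and 7.54 with TNF, 6.42, 6.38 and 6.42 in p53 siRNA untreated and 6.31, 6.63 and 6.23 with TNF. It was detected on all 3 control siRNA TNF arrays, which lay highest, on 2 of control siRNA untreated and on 1 array in each p53 siRNA group. With TNF present it fell by 0.70 ± 0.18 log2 with p53 siRNA (adjusted p = 0.0152, limma). That call was lost without control siRNA with TNF replicate 3 (-0.48, adjusted p = 0.0544), without p53 siRNA with TNF replicate 1 (-0.66, adjusted p = 0.0546) and without p53 siRNA with TNF replicate 3 (-0.62, adjusted p = 0.0626). The TNF effects were 0.52 ± 0.18 (adjusted p = 0.128) in control siRNA cells and -0.02 ± 0.18 (adjusted p = 0.977, and -0.0085 without p53 siRNA untreated replicate 3) in p53 siRNA cells, and the untreated p53 siRNA effect was -0.16 ± 0.18 (adjusted p = 0.563). The size of the CASP8 changes with TNF present depended on the processing. They were smaller with an offset of 50, at -0.59 for the first probe and -0.46 for the second. In the authors' processed values they were -0.42 and -0.33. Under median scaling they were larger, at -0.93 and -0.76, and all of these were called. Probes ILMN_1787749 and ILMN_1809313 were not detected on any array, with signals from 172.9 to 226.2 and from 147.9 to 212.6.

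CASP10, the second initiator caspase, was also dim. Probe ILMN_1797578 read 6.44, 6.80 and 6.65 in control siRNA untreated, 6.29, 6.54 and 6.60 with TNF, 6.66, 6.46 and 5.89 in p53 siRNA untreated and 6.43, 6.59 and 6.49 with TNF. The groups overlapped throughout, and it was detected on 3, 2, 2 and 1 of their arrays. No change was called, the TNF effects being -0.16 ± 0.18 (95% interval -0.56 to 0.25) in control siRNA cells and 0.17 ± 0.18 (-0.23 to 0.57) in p53 siRNA cells, the latter -0.06 without p53 siRNA untreated replicate 3. The p53 siRNA effects were -0.30 ± 0.18 (adjusted p = 0.264) untreated, with -0.07 without p53 siRNA untreated replicate 3, and 0.03 ± 0.18 (adjusted p = 0.936) with TNF, with -0.02 under median scaling. Probe ILMN_2321720 was not detected on any array, with signals from 185 to 249.2.

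**Figure D2:**
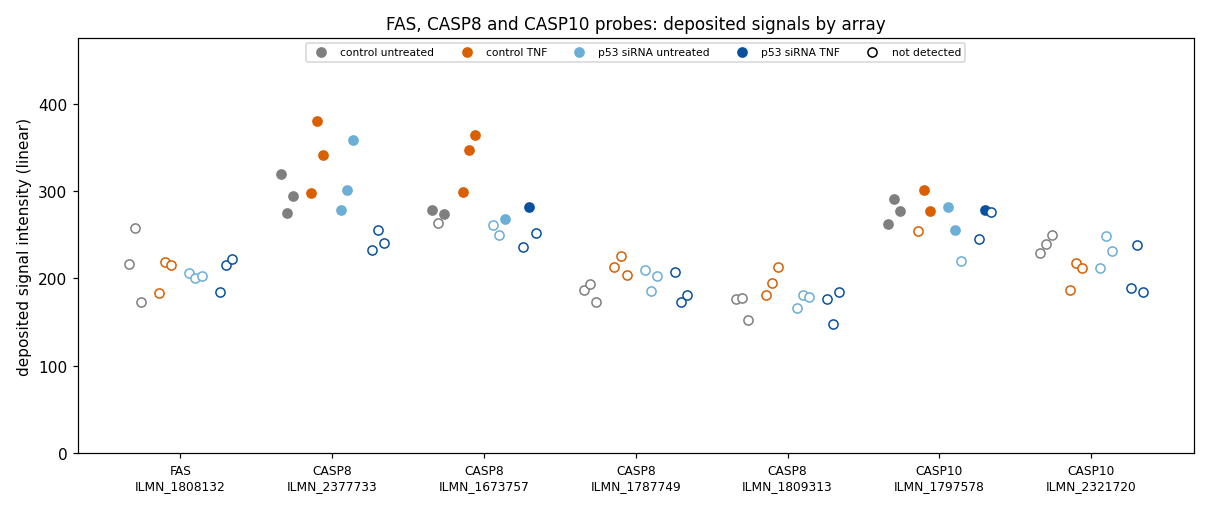
Deposited signal intensities on a linear axis from 0 for all probes of FAS, CASP8 and CASP10 on the 12 arrays, with open circles where the detection p was 0.05 or more. FAS and 3 further probes are open on all arrays, and the filled CASP8 points reach 380.4 for ILMN_2377733 and are missing there in p53 siRNA cells with TNF.

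CFLAR, the inhibitor at the receptor complex, was higher both with TNF and with p53 siRNA. Its levels were 10.01, 9.98 and 10.11 in control siRNA untreated and 10.95, 10.63 and 10.78 with TNF. In p53 siRNA cells they were 11.08, 11.20 and 10.82 untreated and 11.53, 11.54 and 11.51 with TNF. Control siRNA untreated lay below all other arrays and p53 siRNA with TNF above all others, while the groups between them overlapped. The order of the means was 11.53 ± 0.02, 11.03 ± 0.19 in p53 siRNA untreated, 10.78 ± 0.16 in control siRNA with TNF and 10.03 ± 0.07, and the middle pair did not differ beyond their spread. The p53 siRNA raised CFLAR by 1.0 ± 0.13 log2 in untreated cells (2.0-fold, adjusted p = 0.000162, limma), by 1.11 without p53 siRNA untreated replicate 3, and by 0.74 ± 0.13 in TNF-treated cells (1.67-fold, adjusted p = 0.00146). TNF raised it by 0.75 ± 0.13 in control siRNA cells (1.68-fold, adjusted p = 0.00413) and by 0.49 ± 0.13 in p53 siRNA cells (1.41-fold, adjusted p = 0.0494). The last call also sat at the threshold. It was called without p53 siRNA untreated replicate 2 (0.57, adjusted p = 0.0324) and lost in the other 11 fits that each left out 1 array, with changes from 0.39 without p53 siRNA untreated replicate 3 to 0.52 and adjusted p-values from 0.0547 without control siRNA with TNF replicate 1 to 0.149 without p53 siRNA with TNF replicate 2. The TNF response difference was -0.26 ± 0.18 (adjusted p = 0.714).

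Set side by side, the comparisons share arrays, since each group enters 2 of the simple ones, and so they are not independent. With TNF in control siRNA cells 4 of the 10 kept member probes rose (TNFSF10, CFLAR and 2 of TNFRSF10B) and 0 fell, and their median change was 0.64. Over all kept probes 6.24% were called in that comparison, 3.31% as higher and 2.92% as lower, and the median change was -0.01. Groups did not overlap for 7 member probes, all higher with TNF, against 29.4% of all kept probes in either direction. With TNF in p53 siRNA cells 3 of the 10 rose (TNFSF10, CFLAR and 1 probe of TNFRSF10B), 0 fell and the median was 0.27, where 4.93% of all kept probes were called, 2.57% as higher and 2.37% as lower. That count was 1 without p53 siRNA untreated replicate 3, and in the fits that each left out 1 array it ran from 1 to 3. Groups did not overlap for 5 member probes there, 4 of them higher, against 20.8% of all kept probes.

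The siRNA comparisons called more probes over the whole array than the TNF comparisons. In untreated cells 1 of the 10 kept member probes rose (CFLAR) and 0 fell, with 27.7% of all kept probes called, 14% as higher and 13.8% as lower, and a median of -0.03 against 0.01 over all kept probes. Without p53 siRNA untreated replicate 3 the count was 2, with TNFSF10 as the added one. Groups did not overlap for 3 member probes against 37.9% of all kept probes. In TNF-treated cells 1 of the 10 rose (CFLAR) and 3 fell (TNFSF10 and 2 probes of CASP8), with 23.1% of all kept probes called, 10.7% as higher and 12.4% as lower, and a median of -0.18 against 0.02. Groups did not overlap for 5 member probes against 47.1% of all kept probes. Scaling bears on the directions in these siRNA comparisons: under median scaling the median of all kept probes moved to -0.116 untreated and -0.122 with TNF, and the share of calls that were higher went from 50.4% to 25.4% and from 46.4% to 19.3%. CFLAR stayed called as higher, by 0.80 and 0.52, and TNFSF10 with TNF stayed called as lower, by -1.03.

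For the TNF response difference 0 of the 10 kept member probes were called by limma, and 3 had an unadjusted p under 0.05, for TNFSF10, TNFRSF10B probe ILMN_1812915 and CASP8 probe ILMN_2377733. Of all kept probes 0.0823% were called, so this comparison called few probes of any gene. The medians were -0.28 for the member probes and 0.00 over all kept probes. Without p53 siRNA untreated replicate 3 the difference went from -0.03 to 0.15 for TNFRSF10A and from 0.45 to -0.26 for TNFRSF10B probe ILMN_2331010. For FADD it went from -0.09 to -0.22 and for CASP10 from 0.32 to 0.10, and none of these was called. An effect of TNF that was called with 1 siRNA and not with the other is therefore not shown to differ between them for any member.

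**Figure D3:**
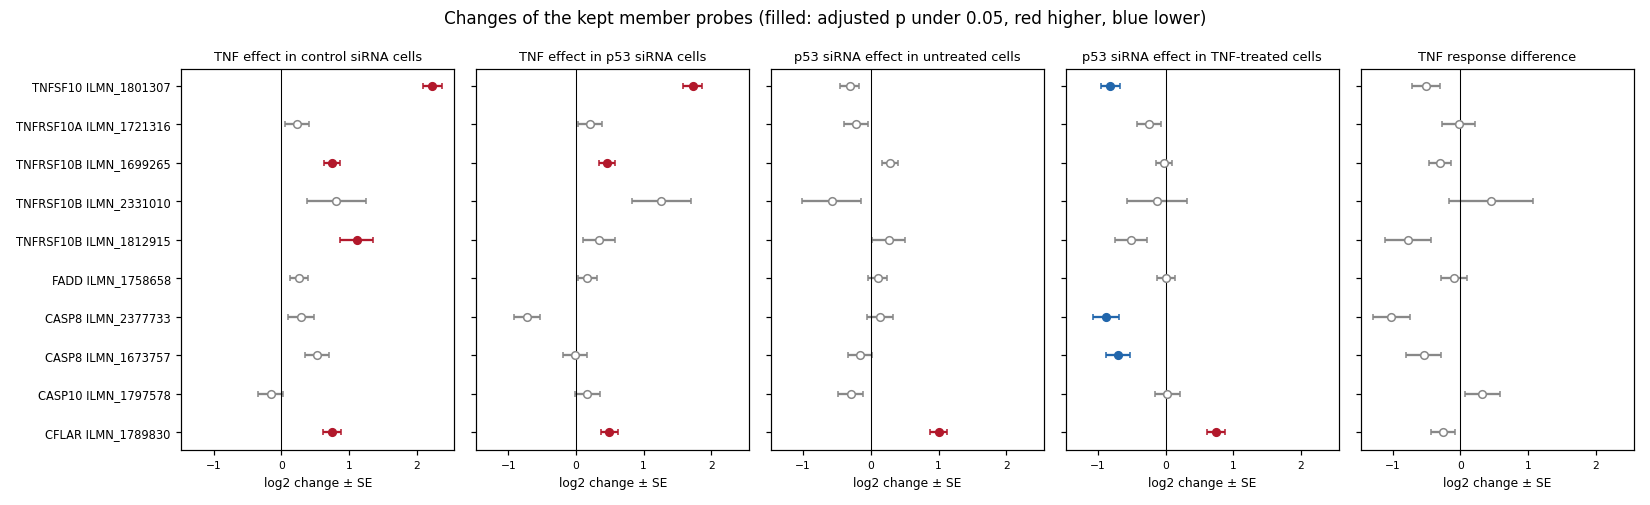
Log2 changes of the 10 kept member probes, with bars of 1 standard error, in the 4 simple comparisons and the TNF response difference; filled points passed an adjusted p under 0.05. Red points (higher) are 4 and 3 in the TNF panels and CFLAR alone in the p53 siRNA panels, blue points (lower) are TNFSF10 and 2 CASP8 probes with TNF present, and no point of the last panel is filled.

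The nearest patterns to those of the called members were looked for over the 4 group means, each gene's means centred on their average, among 5314 genes called in at least 1 comparison, with the root mean square difference in log2 as the measure. For TNFSF10 they were IKBKE (0.114), SLC43A2 (0.167) and CNTNAP1 (0.169). For TNFRSF10B they were ZBTB38 (0.00619), MCTP1 (0.0105) and MSANTD3 (0.0156), by its brightest probe ILMN_1699265 alone. The other probes of the gene did not enter, so this likeness holds for that probe only. For CFLAR they were PPP2R5B (0.0534), REPS2 (0.0553) and MIA3 (0.0621). These rankings depended on the normalisation, since under 3 others tried the nearest 3 genes of TNFSF10 shared between 1 and 3 with this list, those of TNFRSF10B shared 1, and those of CFLAR shared from 0 to 2. CASP8 was left out, because the probe that stands for it was not detected on any array of p53 siRNA with TNF.

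Around the members, 56 further genes of extrinsic apoptosis were listed by role, of which 42 had a kept probe and were tested, each by its brightest kept probe. BIRC3 and RIPK1 were among those not analysed here. CASP6, an executioner caspase, was not called by its brightest probe in the 4 simple comparisons (changes from -0.18 to -0.02) or for the TNF response difference (-0.0041). Its probe ILMN_1659350 fell with p53 siRNA in TNF-treated cells by 0.49 ± 0.15 (adjusted p = 0.0385, limma). That call was lost without control siRNA untreated replicate 2, without each control siRNA TNF array in turn, and without p53 siRNA with TNF replicate 1 (-0.35, adjusted p = 0.161) or 2. With TNF in control siRNA cells 7 of the 42 rose and 1 fell (7.83% of all genes called, medians 0.00 and -0.01), and in p53 siRNA cells 4 rose and 2 fell (6.05%, medians -0.06 and -0.01). With p53 siRNA 7 rose and 11 fell in untreated cells (32.4%, medians -0.01 and 0.01), and 4 rose and 16 fell in TNF-treated cells (27.3%, medians -0.06 and 0.01). For the TNF response difference 0 of the 42 were called by limma with these probes, where 0.104% of all genes were.

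BID, whose cleavage by CASP8 carries the signal to mitochondria, rose with TNF by 1.42 ± 0.13 log2 in control siRNA cells (adjusted p = 2.96e-05, limma) and by 1.14 ± 0.13 in p53 siRNA cells. It fell with p53 siRNA, by 0.81 ± 0.13 untreated and 1.09 ± 0.13 with TNF. Probe ILMN_2372413 of BID was called with the same signs in the 4 simple comparisons, but ILMN_2259495 was called in none. By ILMN_2259495 the TNF effects were 0.18 in control siRNA cells and -0.19 in p53 siRNA cells. Its p53 siRNA effects were -0.19 untreated and -0.56 with TNF. MLKL, the effector of necroptosis, had the same signs as the brightest BID probe. Its changes were 0.91 ± 0.16 for TNF in control siRNA cells, -1.40 ± 0.16 for p53 siRNA untreated and -1.53 ± 0.16 with TNF. PEA15, a death effector domain protein that binds FADD and CASP8, fell with p53 siRNA by 1.61 ± 0.14 untreated and 1.05 ± 0.14 with TNF. CASP1, the inflammatory caspase, was not detected in either p53 siRNA group by its brightest probe. By the group means it was at least 2.23-fold higher in control siRNA cells untreated and at least 3.88-fold with TNF. CASP4, another inflammatory caspase, fell with p53 siRNA by 0.79 ± 0.11 and 0.76 ± 0.11. PARP1, a DNA repair enzyme cleaved by executioner caspases, fell by 1.04 ± 0.11 and 1.20 ± 0.11.

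Among the ligands, TNFSF15 rose in all 4 simple comparisons by both of its probes. By the brightest, ILMN_2106380, the TNF effects were 1.32 ± 0.27 log2 in control siRNA cells and 1.08 ± 0.27 in p53 siRNA cells, and the p53 siRNA effects were 1.40 ± 0.27 untreated and 1.17 ± 0.27 with TNF. The call with TNF in p53 siRNA cells (adjusted p = 0.0384, limma) held in 7 of 22 alternatives. It held without p53 siRNA untreated replicate 3 (1.46) and was lost in the other 11 fits that each left out 1 array, with changes from 0.75 without p53 siRNA untreated replicate 1 to 1.15. The call in control siRNA cells was lost without control siRNA untreated replicate 3 (1.24, adjusted p = 0.053) and without control siRNA with TNF replicate 1 (1.22, adjusted p = 0.0542). By ILMN_1759501 the 4 changes, in the same order, were 2.31 ± 0.19, 1.80 ± 0.19, 1.91 ± 0.19 and 1.39 ± 0.19. The TNF transcript rose with TNF in control siRNA cells, where it was at least 1.33-fold above untreated cells in which it was not detected. With TNF present the transcript was at least 1.28-fold lower with p53 siRNA, and TNFSF12 (TWEAK) fell with p53 siRNA by 0.60 ± 0.13 untreated and 0.91 ± 0.13 with TNF. TNFRSF11B (osteoprotegerin), a soluble decoy that can bind TNFSF10, rose with p53 siRNA in untreated cells by 0.98 ± 0.14 (adjusted p = 0.000392, limma). With TNF present its p53 siRNA effect was 0.40 ± 0.14 and was not called (adjusted p = 0.067). It fell with TNF in p53 siRNA cells by 0.72 ± 0.14 (adjusted p = 0.012), a call lost without p53 siRNA with TNF replicate 2 (-0.69, adjusted p = 0.0591) or 3 (-0.64, adjusted p = 0.0649). CASP2 fell with TNF in control siRNA cells by 0.78 ± 0.11 (adjusted p = 0.00126, limma). In p53 siRNA cells its change was -0.42 ± 0.11 and was not called (adjusted p = 0.0567). By ILMN_1736568 the changes were -0.93 (adjusted p = 0.00855) and -0.44 (adjusted p = 0.216). Probe ILMN_2296057, undetected in both TNF groups, was called only in p53 siRNA cells (adjusted p = 0.0405, against 0.0596). That call held in 4 of 19 alternatives. TNFRSF12A, the receptor of TNFSF12, was higher with p53 siRNA by 0.71 ± 0.17 untreated and 0.72 ± 0.17 with TNF, and neither was called under median scaling (0.47, adjusted p = 0.146, and 0.54, adjusted p = 0.109). Without p53 siRNA untreated replicate 3 the called changes given here for BID, MLKL, PEA15, CASP4, PARP1, TNFSF12, TNFRSF11B and TNFRSF12A stayed called, among them -1.23 for MLKL, 0.87 for TNFRSF11B and 0.55 for TNFRSF12A with p53 siRNA untreated. In the same comparison SEPTIN4 changed by -0.54 (adjusted p = 0.0371, limma), a call that held in 8 of 20 alternatives. It was lost in 7 fits that each left out 1 array, among them that without p53 siRNA untreated replicate 3 (-0.48, adjusted p = 0.0832). Without the same array BIRC5 went from -0.88 to -0.51 by its brightest probe and stayed called (adjusted p = 0.0167). By its other kept probe, ILMN_1803124, it went from -1.30 to -1.22, a change called in all 21 alternatives. Of 46 called changes of the genes named from this list, 29 were called in every fit that left out 1 array and 25 in every alternative. The 9 named genes with further kept probes had 13 of them, whose calls were the same in 49 of 65 changes, differed in being called at all in 16 and were opposite in 0.

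**Figure D4:**
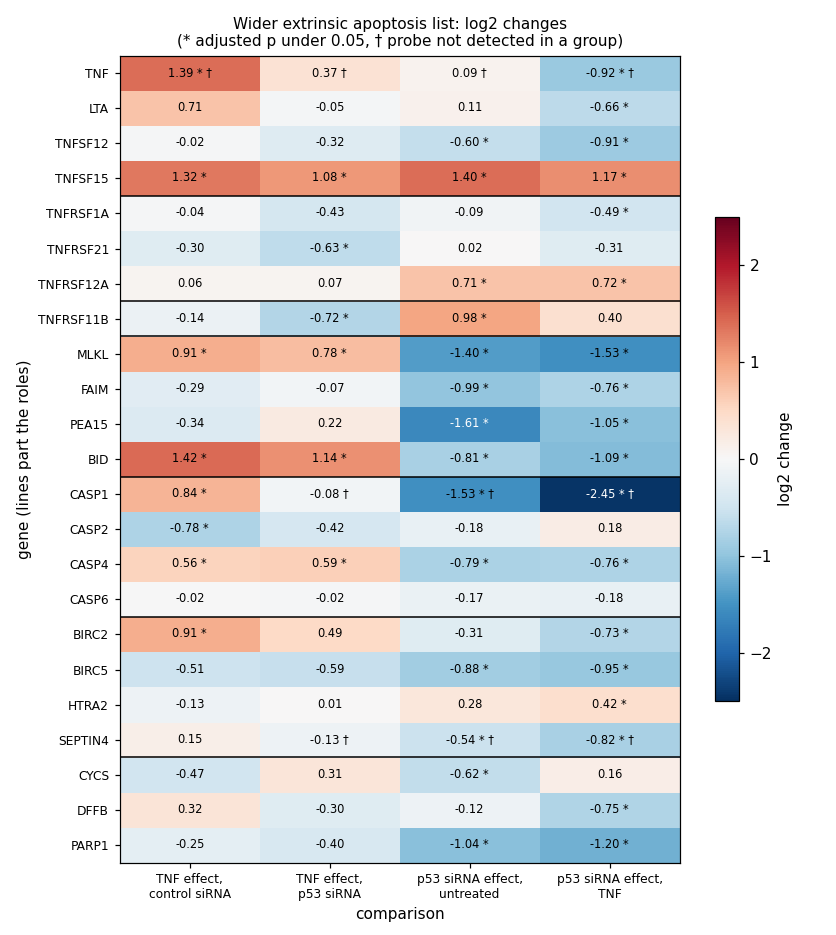
Log2 changes of 23 named genes of the wider list in the 4 simple comparisons, as colour and printed value, with an asterisk at an adjusted p under 0.05, a dagger where the probe was not detected in at least 1 of the groups compared, so that the value is only fitted, and lines between roles. Among values without a dagger the strongest blue is PEA15 at -1.61 untreated and MLKL at -1.53 with TNF, both in the p53 siRNA columns, whereas BID and TNFSF15 are red in both TNF columns.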

How the data were processed

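Total RNA of MDA-MB-231 cells was hybridised to 12 Illumina bead arrays. In the signal table deposited by the authors each of 47322 probes has an intensity and a detection p-value on every array, per the file headers. GenomeStudio is named per the submitters' processing notes, and its version and the way the detection p-values were made are not given in the sources used here. The authors' processed table, deposited as linear intensity values for 47313 probes with a common median of 241.6 per array, was used only as an alternative, because how it was normalised is unknown.

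limma 3.58.1 (R 4.3.3) was used throughout. Its neqc function background-corrected and quantile-normalised the signals; it infers the background from the detection p-values and adds an offset of 16 before taking log2. The filter on dim probes asked for 3 or more arrays with a detection p under 0.05 and left 23079. Genes were named from the platform annotation, which can be old and gave 1 gene for 30107 probes. One model of group means covered all 12 arrays (lmFit and eBayes, 8 residual and 4.15 prior degrees of freedom), and 5 comparisons were tested, 2-sided, with Benjamini-Hochberg adjustment within each over all kept probes. The number of arrays limits the precision, and the files used give no slide or other batch. The fit was tested on simulated data before use.

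A probe detected on none of the 3 arrays of a group has only a bound there, written as "at least N-fold". For it the brighter group's mean is set against the dim group's. In the dim group each array counts at its faintest detected probe or, if larger, at the probe's own value. The bound concerns detection in the main processing only and carries no sampling error. Intervals and other processing can therefore include smaller folds. Where some arrays of the group detect the probe, the fitted change is given without a bound. Members are described by all their probes. Of the wider list, up to 4 called genes per role were named by size of change, with CASP6 whatever its values, and the nearest 3 genes by group means were named for each called member except CASP8. Members and lists were chosen with earlier results of these data known. Same-numbered arrays did not deviate together (correlations of deviations from the group means from -0.0501 to 0.151), so the numbers were not taken as pairs. Columns of per-sample values left unused numbered 0. Alternatives were other background correction and scaling, other detection filters, 1 probe per gene, fits to the compared groups only, array weights, a replicate block and each array left out. The likeness rankings under other scalings and the further probes of named genes were added after seeing the data. Depletion by the p53 siRNA was not checked, since the targeted transcript is not reported here, nor are some genes of the wider list, and groups go by their labels.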

Additional observations from a re-analysis of the deposited data

Results flagged for a closer look

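CASP1, the inflammatory caspase, had a fitted TNF response difference between the siRNAs of -1.31 ± 0.18 log2 (adjusted p = 0.0177, limma) by its other kept probe, ILMN_2326509. The probe was not detected on any p53 siRNA array, so its TNF response in p53 siRNA cells was not measured and the fitted difference is not a measured size. It rose with TNF by 1.42 ± 0.13 in control siRNA cells (means 6.59 and 8.01). By the group means the control siRNA groups were at least 1.10-fold above the p53 siRNA groups untreated and at least 2.88-fold with TNF. The call held in 8 of 19 alternatives, with values from -1.40 to -0.64. It was lost, among others, with the replicate block (adjusted p = 0.0539), in the authors' processed values (-0.64, adjusted p = 0.0711) and in 7 fits that left out 1 array: control siRNA untreated replicate 2 (-1.23, adjusted p = 0.0741) or 3 (-1.31, 0.0672), control siRNA with TNF replicate 1 (-1.26, 0.0761) or 2 (-1.28, 0.0559), and p53 siRNA with TNF replicate 1 (-1.26, 0.0764), 2 (-1.32, 0.0667) or 3 (-1.34, 0.0505). By the brightest CASP1 probe, also undetected in both p53 siRNA groups, the same difference was not called (-0.92, adjusted p = 0.253).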

How the results depend on the processing

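Of 1050 recomputed member changes, 979 kept their direction and their side of the threshold, 36 lost a call, 11 gained one and 24 changed sign, none of these with a call under either setting; the cause was not tested. TNFSF10 (both TNF effects and p53 siRNA with TNF), CFLAR (TNF in control siRNA cells and both p53 siRNA effects) and TNFRSF10B probe ILMN_1699265 (TNF in control siRNA cells) were called in all 22 alternatives. The TNF effects on CFLAR and that TNFRSF10B probe in p53 siRNA cells were called in 6 of 22 each, with adjusted p-values of 0.0816 and 0.0664 under the replicate block. Number of probes called: TNF in control siRNA cells, 2693 with array weights and 819 to 2309 leaving out 1 array (1439 as reported); TNF in p53 siRNA cells, 635 with median scaling, 364 with only the groups compared and 651 to 2050 leaving out 1 array (1138); p53 siRNA untreated, 3894 with only the groups compared (6395); p53 siRNA with TNF, 8235 with array weights (5331). For the TNF response difference (19) it was 12 with median scaling, 44 in the authors' values, 3 with detection on all 12 arrays, 30 at a detection p under 0.01 and 9 to 32 leaving out 1 array, and the share of its calls that were higher was 15.8% as reported, 27.3% with an offset of 50 and 47.7% in the authors' values. With the replicate block the counts were 1273, 981, 6184, 5102 and 17, and its only changed member calls were the 2 above. Member probes called with TNF in p53 siRNA cells numbered 1 with median scaling, no detection filter, only the groups compared, array weights or the replicate block, and 1 to 3 leaving out 1 array (3 as reported). They numbered 2 with array weights and 1 to 2 leaving out 1 array for p53 siRNA untreated (1), and 2 with detection on all 12 arrays for p53 siRNA with TNF (4), where the CASP8 probes are not tested.

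Sign changes, all uncalled, are given in log2, as ranges where 1 array was left out. TNF in p53 siRNA cells gave -0.14 to 0.064 for CASP8 ILMN_1673757 (0.0018 with array weights) and -0.055 to 0.33 for CASP10. The p53 siRNA effect untreated gave -0.94 to 0.13 for TNFRSF10B ILMN_2331010, -0.040 to 0.47 for ILMN_1812915 and -0.017 to 0.23 for FADD (-0.13 with median scaling). With TNF it gave -0.27 to 0.051 for TNFRSF10B ILMN_2331010, -0.069 to 0.035 for ILMN_1699265, -0.050 to 0.054 for FADD (-0.20 with median scaling) and -0.064 to 0.088 for CASP10 (-0.018 with median scaling). The TNF response difference gave -0.18 to 0.15 for TNFRSF10A (0.10 with array weights), -0.26 to 0.81 for TNFRSF10B ILMN_2331010 (-0.034 with array weights) and -0.22 to 0.023 for FADD. CASP6 gave -0.12 to 0.12 for TNF in control siRNA cells (4.84e-05 with median scaling, 0.0079 with array weights), -0.20 to 0.069 for TNF in p53 siRNA cells (0.10 with array weights), -0.27 to 0.0053 for p53 siRNA untreated and -0.18 to 0.097 for the difference (0.092 with array weights). Dim probes (CASP8, CASP10, FAS) limit what these arrays resolve.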
